A study of Quercus robur with 165 samples.

Results

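The genes described here were the 100 of 35397 genes in the deposited root transcriptome of *Quercus robur* (pedunculate oak) that were highest in summer-sown relative to spring-sown seedlings, in the taproot and in the lateral root alike. They were chosen from the group means of long, normal roots grown in containers, in 6 groups of 3 libraries. A gene had to have a mean of at least 2 TPM over these groups (the scaled share of transcripts, a level normalized to gene length and library). Its mean at the first spring harvest also had to lie within 1.5-fold of that at the second, in taproots and in lateral roots, after 0.5 TPM was added to each. These conditions were met by 14142 genes. The score of a gene was its log2 ratio of the summer mean to the higher spring mean, in whichever root type gave the smaller ratio. The 100 highest scores were taken, and 1 gene of the study's RT-qPCR list that would have been among them was left out.

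The study sampled roots of container seedlings and of seedlings in rhizotrons, which are clear-walled chambers in which root growth can be followed. Dataset 1 held 75 libraries in 25 groups of taproot meristematic zones and lateral roots, and Dataset 2 held 90 libraries in 30 groups and added the elongation zone of the taproot. Seedlings sown in early spring were 7 weeks old at the first harvest and 8 weeks old at the second, and those sown in early summer were 8 weeks old at the third. Roots were classed by length (short, medium or long), morphology (normal or thick) and vitality (active or dying). The study describes dying roots as typically container taproots at the container's base. Dying groups also came from rhizotron and transplanted seedlings and from lateral roots.

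Dataset 2 came from the next year and from older acorns of the same lot, and its codes name no harvest or sowing date. It also held seedlings raised in a container for a year and then moved to a rhizotron, called transplanted here, which were sampled 8 weeks after the move. Summer sowing was represented by 5 groups only, and these were long taproots, normal or thick, from the container or the rhizotron, and long normal lateral roots from the container. Each harvest was made at a single age and sowing date, so that sowing date and harvest cannot be told apart. A level in such bulk tissue cannot tell fewer cells of a type from less RNA per cell, which holds for every value below.

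In oak seedlings the taproot grows from a meristem at its tip, behind which lies the elongation zone, where cells lengthen before they mature. Lateral roots branch from the taproot above that zone and have meristems of their own. In a container the taproot tip stops when it reaches the base and meets air, which foresters call air pruning, whereas in a rhizotron it can go on growing. The genes carry the identifiers of the authors' assembly (MSTRG numbers), which the sources used here pair with no name or function for any of the 100, so that no role can be given to them. They are therefore described by their levels across root types, lengths and treatments.

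Several libraries stood apart or resembled each other closely, which bears on all tests. Expected counts, the reads that the authors assigned to genes, summed to 20037169 to 24793325 per library in Dataset 1 and to 22882800 to 33341476 in Dataset 2. Library distance was taken as the coefficient of variation in excess of counting noise, over 5147 genes with a mean count between 1000 and 10000, and it was under 0.05 in 77 of the 165 pairs of libraries within groups. When pairs this close were linked, the 3 libraries of 18 of the 55 groups joined into 1 unit. These groups included the summer lateral roots and both groups of thick summer taproots, and the remaining summer groups each had 1 such pair. Libraries 2 and 3 of long spring taproots from the rhizotron were also this close to libraries 2 and 3 of long dying spring taproots from the container (0.0312 to 0.0451 in 3 pairs), although their labels differ. Library 1 of that dying group lay 0.425 and 0.441 from its own libraries 2 and 3. Each test is therefore given also with near-identical libraries summed into units, in a single fit of all groups of the dataset. The codes and descriptions disagreed on length for the first-harvest normal container taproots used as long in the choice of the genes, and on vitality for the long dying transplanted taproots of Dataset 2. The codes were followed for both, and the choice was repeated without the first of these groups and the tests without the second.

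The working name of this set, genes high after summer sowing only, was not borne out by the other groups. In at least 1 of the 10 spring taproot groups that played no part in the choice, 73 of the 100 genes reached or passed their own mean in summer container taproots. The same held for 23 of the 100 genes in at least 1 of the 6 other spring groups of lateral roots. The count per group was 46 in long dying container taproots at 7 weeks, 44 in medium dying rhizotron taproots and 38 in medium thick container taproots. In long dying container taproots at 8 weeks it was only 7, and in long normal rhizotron taproots 2. It was 16 in medium normal rhizotron taproots. In short and medium normal container taproots it was 0 to 2, and in medium normal lateral roots of the container 0 or 1. Only 21 genes stayed below their summer mean in every other spring group of the same root type. The counts of 73, 23 and 21 set several spring groups against a single summer mean, which makes reaching that mean easier. The shares of other genes that would do so, in any or in each of these groups, were not determined. All these counts therefore describe the 100 genes only and do not set them apart from other genes. Because many of the 100 genes were as high in some spring groups, they are called the summer-high container genes below, after the contrast by which they were chosen.

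Scores of the 100 genes ran from 0.88 to 3.11 on the log2 scale, with a median of 1.10. As these values chose the genes, they are given as a description and were not tested. The log2 ratio of summer to the higher spring mean had a median of 1.29 in taproots and of 1.47 in lateral roots, against medians of -0.17 and 0.005 over the 14142 genes. A score of at least 1 was reached by 69 genes and one of at least 2 by 7. The taproot gave the smaller ratio for 59 genes and the lateral root for 41. All 3 summer libraries lay above all 6 spring libraries in taproots for 89 genes and in lateral roots for 97. The choice itself favoured this separation, and its share over the 14142 genes was not determined. The 3 summer lateral root libraries were also near-identical, at distances of 0.0216 to 0.0241. The set was sensitive to its libraries, as 58, 54 and 55 of the 100 genes were chosen again without replicate 1, 2 or 3 of each group, and 49 without the group of conflicting length.

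The highest score belonged to MSTRG.28195. Its 3 summer container taproot libraries read 76.7, 81.9 and 70.4 TPM, and its spring libraries read 4.63, 9.71 and 2.23 TPM at 7 weeks and 0, 13.6 and 11.5 TPM at 8 weeks. In lateral roots the summer libraries read 20.4, 18.7 and 18.3 TPM, and no spring library exceeded 0.79 TPM. Summer and spring libraries of this gene were thus far apart in both root types of the container. In long taproots from the rhizotron, however, the summer libraries held 11.8, 11.4 and 9.93 TPM and the spring libraries 31.0, 12.9 and 15.1 TPM, so that summer lay below spring there. Long dying spring taproots from the container matched the summer level at 7 weeks, with 76.6, 72.5 and 74.1 TPM.

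MSTRG.28473 followed the same course at higher levels. Its summer container libraries held 357, 384 and 374 TPM in taproots, against 19.2 to 110 TPM in the 6 spring libraries, and 153, 148 and 152 TPM in lateral roots, against 15.1 to 22.0 TPM. In rhizotron taproots its summer libraries (162, 116 and 107 TPM) and spring libraries (144, 103 and 86.6 TPM) overlapped. Dying container taproots at 7 weeks held 481, 480 and 460 TPM, above every summer library of normal container taproots. In thick dying taproots of transplanted seedlings the gene reached 3960, 3423 and 2759 TPM, and MSTRG.28195 reached 930, 772 and 682 TPM there.

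MSTRG.23303 was low in all 6 spring container taproot libraries, at 0 to 1.94 TPM, and stood at 6.59, 9.28 and 8.88 TPM after summer sowing. It was higher again in dying container taproots at 7 weeks (26.3, 33.0 and 33.3 TPM) and in thick summer taproots from the container (30.4, 25.8 and 30.3 TPM). Library 1 of dying container taproots at 8 weeks held 13.0 TPM, whereas libraries 2 and 3, the libraries that resembled rhizotron taproots, held 0.43 and 0 TPM.

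MSTRG.12084 and MSTRG.8784 behaved differently from these 3 genes. MSTRG.12084 held 27.4, 27.9 and 28.9 TPM in summer lateral roots, against 0.86 to 3.37 TPM in the 6 spring libraries, but only 0.65, 1.40 and 0.64 TPM in dying container taproots at 7 weeks. The summer container taproot libraries of MSTRG.8784 were spread, at 17.5, 5.59 and 4.90 TPM, and the gene was at most 0.45 TPM in the 6 libraries of thick summer taproots. Neither gene shared the high level of those 3 genes in dying taproots at 7 weeks, where MSTRG.8784 held 0, 0.25 and 0.27 TPM. In thick summer taproots MSTRG.12084 held 6.62, 5.04 and 4.44 TPM in the container, within the range of the normal ones (3.70, 8.59 and 8.14 TPM), and 0.40, 0.15 and 0.94 TPM in the rhizotron.

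The sixth gene by score, MSTRG.32094, was listed at 0 TPM in all 12 spring libraries used in the choice. It held 8.37, 13.5 and 17.2 TPM in summer container taproots, while in summer lateral roots library 1 held 4.76 TPM and the other 2 libraries were listed at 0. Its place in the set therefore rested on 1 lateral root library. It was listed at 0 in all 6 libraries of long normal rhizotron taproots, spring and summer.

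**Figure D1:**
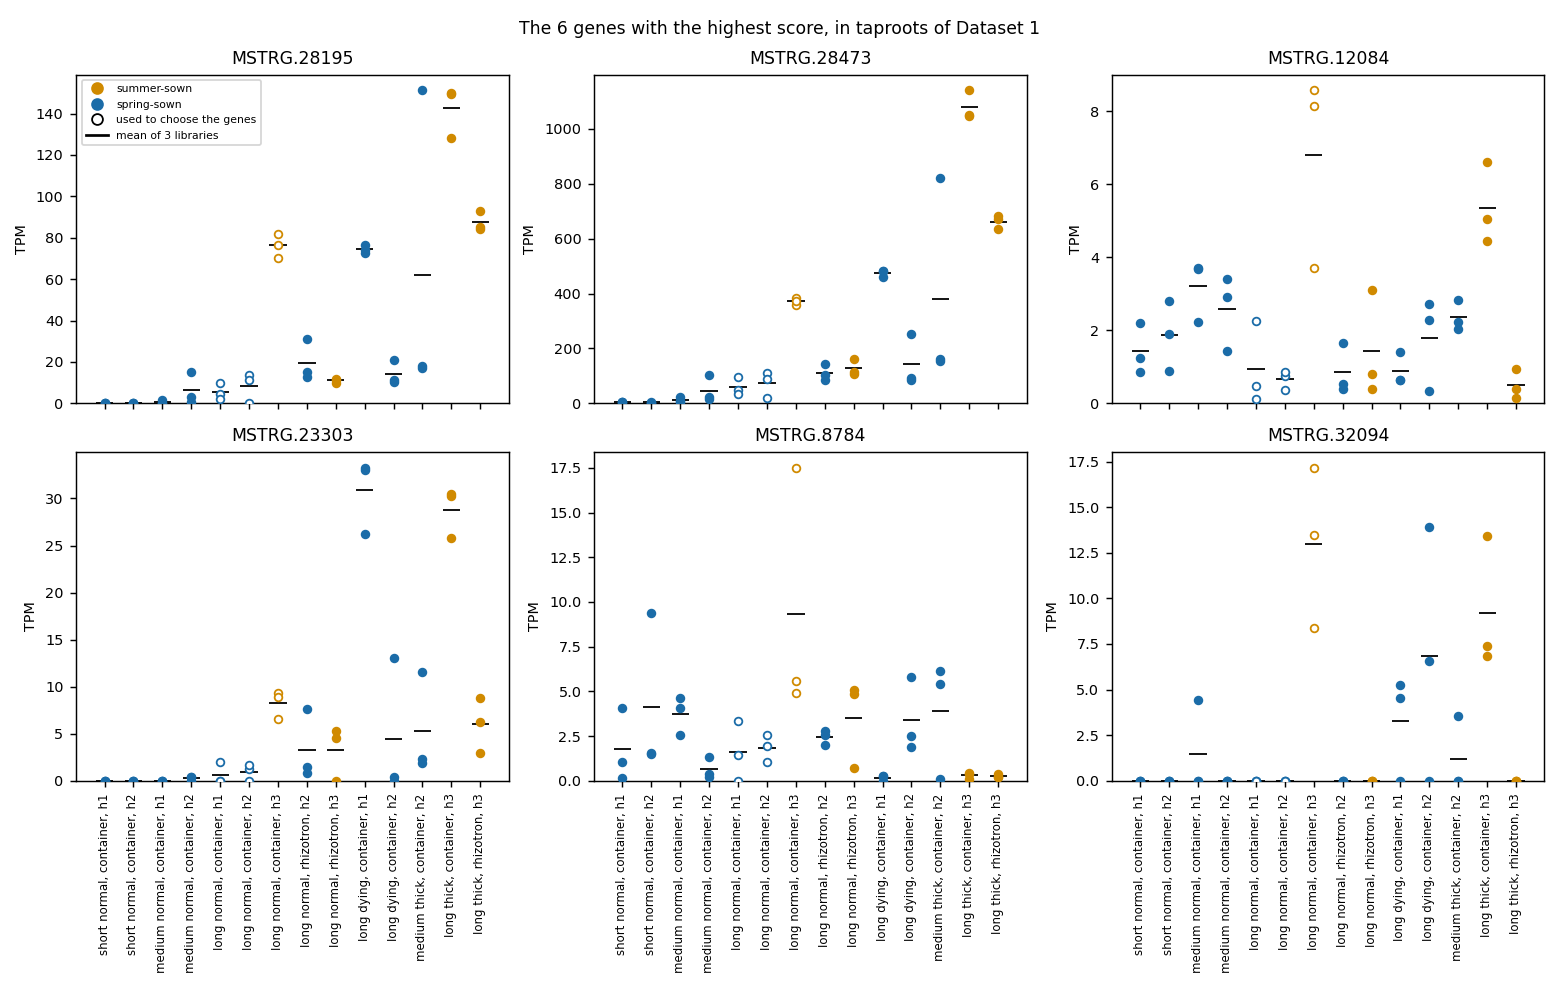
TPM (linear axes) of the 6 genes with the highest score in each library (points) of 14 taproot groups of Dataset 1, with the mean of 3 libraries as a bar and open points for groups used in the choice. Several of these genes, such as MSTRG.28473 with 481, 480 and 460 TPM in dying spring taproots, stood as high in dying or thick taproots as in normal summer taproots of the container.

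At the lower limit of the set, the scores were closely spaced. MSTRG.16144 and MSTRG.26369, the last genes taken, had scores of 0.88 each, and MSTRG.14234 and MSTRG.15444, the next genes below, had 0.87 each. MSTRG.26369 held 9.59, 9.80 and 9.78 TPM in summer taproots, against 1.57 to 5.79 TPM in the spring libraries, and MSTRG.15444 held 105, 122 and 126 TPM, against 29.3 to 70.9 TPM. Genes on either side of the limit were thus alike in their separation of summer from spring libraries.

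Levels in the set spanned a wide range. The mean of the summer container groups was at least 100 TPM for 18 genes, 10 to 100 TPM for 49 and under 10 TPM for 33. The most abundant genes were MSTRG.15424, MSTRG.27246, MSTRG.19452 and MSTRG.28185. MSTRG.27246 held 3004, 2955 and 2988 TPM in summer taproots and 477, 490 and 479 TPM in summer lateral roots, whereas MSTRG.15424 held 1696, 1515 and 1656 TPM in taproots and 3197, 3288 and 3370 TPM in lateral roots. In these summer container groups, the root type with the higher level therefore differed between these 2 genes. MSTRG.15424 did not keep its order in all groups of Dataset 2, as described below. MSTRG.28185 was the most uneven of these 4 genes, with 602, 728 and 708 TPM in summer taproots and 50.36, 50.02 and 50.53 TPM in summer lateral roots. Across the set, 32 genes were higher in summer taproots and 68 in summer lateral roots. At least 1 TPM was found in all 55 groups for 33 genes and in at least 50 groups for 67, and 8 genes reached it in under 28 groups. The genes also appeared short, as the ratio of expected count to TPM, which grows with gene length, had a median of 0.752 of that of the 14142 genes and was below it for 71 of them.

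Across spring container taproots of Dataset 1, the median level of the 100 genes was low in short and medium normal roots and higher in dying and thick ones. The 3 libraries of short taproots had medians of 0.86 to 1.06 TPM at 7 weeks and of 0.54 to 1.21 TPM at 8 weeks. Those of medium taproots lay at 0.76 to 2.00 TPM and at 1.66 to 2.17 TPM. Long normal taproots, which entered the choice, lay at 1.84 to 4.35 TPM and at 2.16 to 4.57 TPM, a level that the choice itself favoured by its minimum over long roots, and the 7-week group is the one with conflicting length. Long dying container taproots had medians of 9.65 to 9.69 TPM at 7 weeks, next to 9.80 to 11.2 TPM in long normal summer taproots of the container. At 8 weeks the dying taproots were lower and uneven, at 3.93 to 7.59 TPM, and lay below thick container taproots of medium length (8.29 to 8.70 TPM). The group means of 46 of the 100 genes in dying taproots at 7 weeks were at or above their summer container mean, and the same was true of 44 genes in medium dying taproots of the spring rhizotron and of 38 in medium thick spring taproots of the container. The shares of other genes for which this held were not determined. Differences with length were not tested.

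The genes were higher still in thick summer taproots, with library medians of 16.4 to 16.8 TPM in the container and of 15.4 to 17.5 TPM in the rhizotron. Normal lateral roots of spring seedlings lay at 3.90 to 6.91 TPM in the container and at 10.7 to 12.8 TPM for long lateral roots of the rhizotron. Long summer lateral roots of the container, which entered the choice as the high group, lay at 17.9 to 18.8 TPM. Over the same groups of Dataset 1, the median of the 14142 genes stayed between 13.9 and 18.5 TPM in all groups but thick lateral roots of the rhizotron, where it was 9.65 TPM and where the 3 most abundant genes held 42.7% of the counts.

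**Figure D2:**
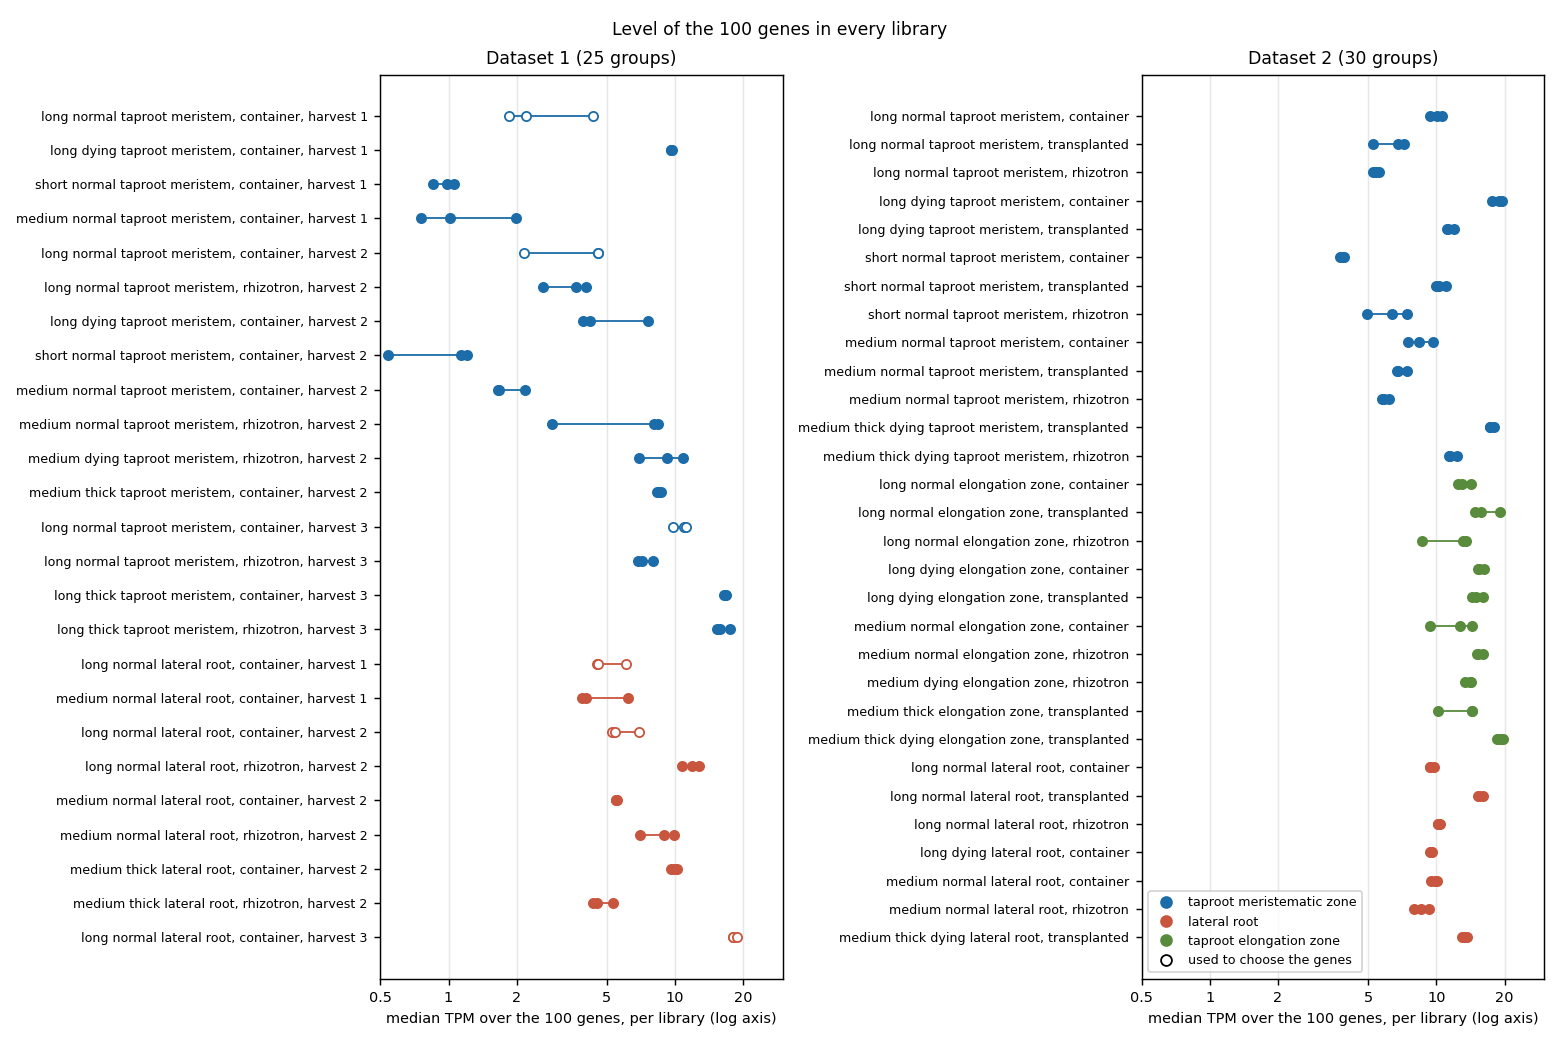
Median TPM of the 100 genes in each library (log axis), with the libraries of a group joined by a line, for 25 groups of Dataset 1 and 30 of Dataset 2; colours mark the root part and open points the groups used in the choice. Dying spring taproots of the container at 7 weeks (9.65 to 9.69 TPM) sat next to summer taproots (9.80 to 11.2 TPM), and short container taproots of Dataset 2 (3.77 to 3.92 TPM) were the lowest of that dataset.

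In Dataset 2, which has no summer label, the genes were high in most groups. Group medians ran from 3.80 to 19.6 TPM in taproot meristematic zones, from 12.1 to 20.1 TPM in elongation zones and from 8.47 to 16.1 TPM in lateral roots. The datasets differ in year, acorn age and harvest, so that this difference from spring roots of Dataset 1 (1.00 to 10.1 TPM in taproots) cannot be assigned to any of them. Short container taproots had library medians of 3.77 to 3.92 TPM. Long dying container taproots, with 17.7 to 19.4 TPM, overlapped thick dying taproots of transplanted seedlings, whose lowest library lay at 17.2 TPM and whose group median was 17.9 TPM. Over all 55 groups, 17 genes had their highest mean in summer lateral roots of the container and 3 in a group of summer taproots. Another 17 peaked in thick dying taproots of transplanted seedlings, 15 in their thick dying lateral roots and 7 in a spring group of Dataset 1. Of the 100 genes, 73 thus peaked in Dataset 2, where 29 did so in a meristematic zone, 29 in a lateral root and 15 in an elongation zone.

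**Figure D3:**
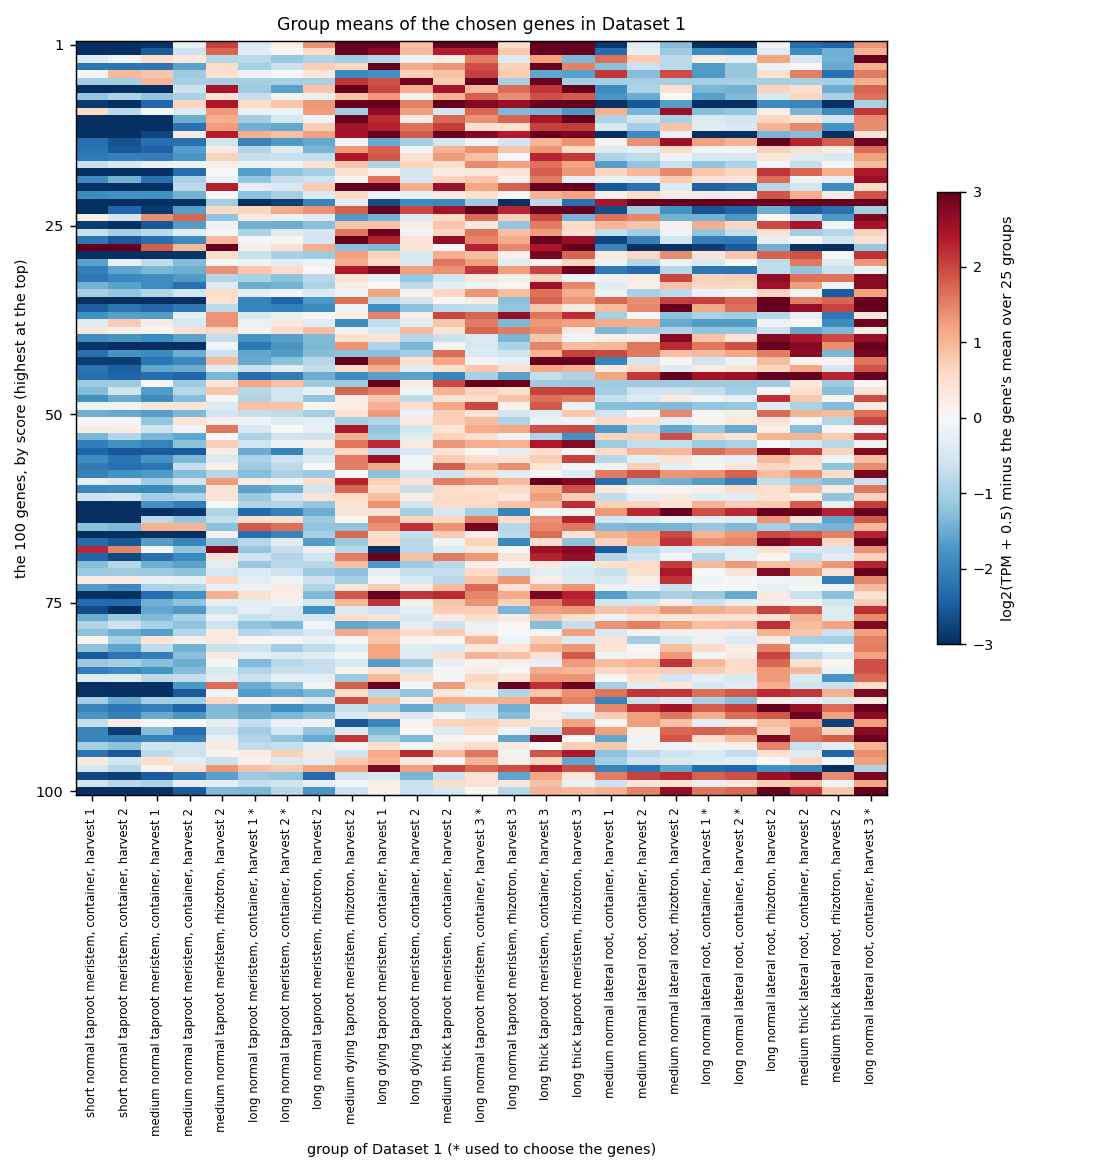
Group means of the 100 genes (rows, by score) in the 25 groups of Dataset 1 (columns), as log2(TPM + 0.5) minus the mean of the gene over these groups. Short and medium spring taproots of the container are blue for most genes, dying and thick taproots are red for many, and a minority of genes keeps low levels in lateral roots or runs against the others.

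The likeness of the genes to each other was described over the 49 groups that the choice did not use, without a comparison with other genes. The Spearman coefficient of a gene with the median of the other 99 genes, over group means that share root part, harvest and dataset, had a median of 0.58, and it was 0.5 or more for 64 genes and below 0 for 8. MSTRG.14342 was nearest to the rest, at 0.90. It held 0.84, 1.24 and 0.59 TPM in short container taproots at 7 weeks, 49.4, 62.9 and 64.5 TPM in summer container taproots and 110, 122 and 119 TPM in dying container taproots of Dataset 2. MSTRG.26998 was the farthest, at -0.39. It held 105, 108 and 123 TPM in summer container taproots but 413, 211 and 72.7 TPM in short spring taproots and 1.99, 4.32 and 5.74 TPM in dying container taproots of Dataset 2. These 2 genes were named after their values were seen.

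Of the 21 genes that were below their summer mean in every other spring group of the same root type, MSTRG.22902 and MSTRG.1510 were the most abundant. MSTRG.22902 had means of 245 TPM in summer container taproots and 173 TPM in summer lateral roots, and its highest means in the other spring groups were 162 TPM in taproots and 92.0 TPM in lateral roots. MSTRG.1510 had means of 522 and 175 TPM after summer sowing, against at most 309 and 101 TPM. At the other extreme, MSTRG.29591 (19.9 against 19.6 TPM in taproots) and MSTRG.12502 (10.8 against 10.5 TPM) only just met this description. Apart from MSTRG.1510, these genes were chosen after their values were seen.

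Whether the genes also separate summer from spring sowing outside the container was asked in long, normal, 8-week-old taproots from the rhizotron, which had no part in the choice. Library medians of the 100 genes were 6.86 to 8.02 TPM after summer sowing and 2.61 to 4.07 TPM after spring sowing. The groups did not overlap at that level. For 52 genes all 3 summer libraries lay above all 3 spring libraries, and for 2 genes below, whereas this was so for 21.6% and 13.8% of the 14142 genes. With edgeR's quasi-likelihood test and Benjamini-Hochberg adjustment over all genes tested, 34 of the 87 genes with enough counts were higher and 1 was lower at an adjusted p under 0.05, against 9.72% and 6.4% of all genes tested. The median log2 fold change was 0.87 for the 87 genes and 0.01 for all genes.

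These counts changed with the treatment of the libraries and with the fit. In a single fit of all groups with separate libraries, 19 genes were higher and 2 lower, against 1408 and 962 of all 27838 genes tested. With near-identical libraries merged in that fit, which left 2 units in each group, 0 of 99 genes were called by edgeR, with 23 at an unadjusted p under 0.05, and 0.0447% and 0.0103% of all genes were higher and lower. Without the 2 spring libraries that matched another group, in the same single fit, 1 spring library was left and was assumed to vary like the other groups. Omitting library 1 of both groups, which left the near-identical pair of each, gave 61 calls, while omitting library 2 or library 3 gave 4 and 5. The calls over all genes moved alike. Without library 1, 5281 of 22528 genes were higher and 4618 lower. Without library 2 these numbers were 127 and 17 of 22187, and without library 3 they were 136 and 14 of 22214. The median log2 fold change of the genes was 0.86 with libraries merged and 1.17 without the 2 spring libraries. Without TMM scaling factors (trimmed mean of M-values), 34 genes were higher and 1 lower, and all genes split into 2439 higher and 976 lower in place of 2141 and 1410.

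MSTRG.10350 had the largest increase of these 34 genes. Its spring rhizotron libraries held 4.99, 7.77 and 7.99 TPM and its summer libraries 68.9, 69.6 and 97.8 TPM. The log2 fold change was 3.42 (SE 0.20, adjusted p = 0.00033 by edgeR), and it was 3.51 with libraries merged, where the adjusted p was 0.12 by edgeR. The gene that was lower, MSTRG.9500, held 0.97, 1.21 and 1.47 TPM in spring and 0.03, 0.05 and 0.41 TPM in summer. Its log2 fold change was -2.96 (SE 0.76, adjusted p = 0.039 by edgeR), which did not pass with libraries merged (adjusted p = 0.14), with a replicate block (0.072), or without replicate 2 or 3 (0.26 and 0.27). Of the 4 most abundant genes, MSTRG.27246, MSTRG.19452 and MSTRG.28185 rose by 0.68, 0.94 and 1.18 on the log2 scale. MSTRG.15424 did not pass (0.42, SE 0.39, adjusted p = 0.52 by edgeR).

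**Figure D4:**
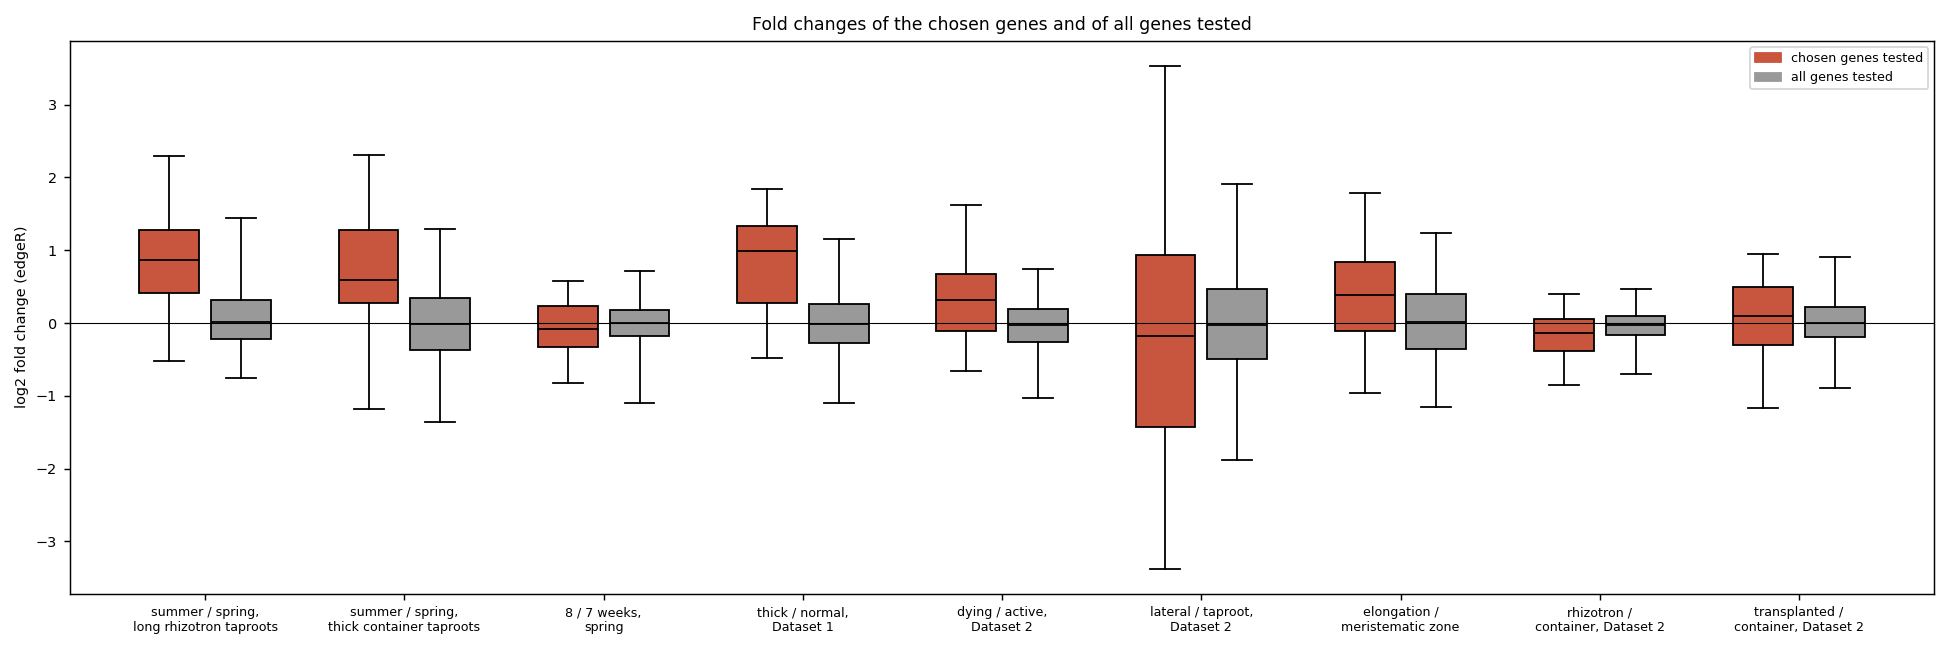
Log2 fold changes (edgeR) of the summer-high container genes tested (red) and of all genes tested (grey) in 9 comparisons that the choice did not use, as boxes from the lower to the upper quartile with the median as a line and whiskers from the 5th to the 95th percentile. The median of the chosen genes lay above that of all genes by the most in thick against normal roots (0.99 against -0.01) and in summer against spring rhizotron taproots (0.87 against 0.01), and it was spread widest in lateral roots against taproots.

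The same question was put to thick container taproots at 8 weeks, although the summer group was long and the spring group of medium length, so that sowing and length cannot be told apart there. Library medians were 16.4 to 16.8 TPM in summer and 8.29 to 8.70 TPM in spring. Of the 94 genes tested by edgeR, 54 were higher and 7 lower at an adjusted p under 0.05, against 21.2% and 22.3% of all genes. Log2 fold changes had a median of 0.59 for the genes and -0.01 for all genes tested. For 64 genes all summer libraries lay above all spring libraries and for 8 below, against 41.4% and 17.2% of the 14142 genes. With libraries merged, where the 3 summer libraries formed a single unit that was assumed to vary like the other groups, 1 gene was called by edgeR (0.289% of all genes higher and 0.196% lower), with 23 at an unadjusted p under 0.05. Omitting replicate 1, 2 or 3 gave 30, 34 and 80 calls. Over all genes, 1522 were then higher and 1574 lower of 23379, 2191 and 2357 of 23349, and 7020 and 7115 of 23447.

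MSTRG.32016 rose most in thick taproots. It held 8.80, 11.8 and 18.3 TPM in spring and 105, 110 and 110 TPM in summer, without overlap, and its log2 fold change was 2.89 (SE 0.25, adjusted p = 0.00021 by edgeR; 0.055 with libraries merged). MSTRG.3033 fell from 3.63, 5.57 and 7.50 TPM to 1.15, 1.37 and 2.02 TPM, with a log2 fold change of -1.89 (SE 0.40, adjusted p = 0.008 by edgeR), which did not pass with libraries merged (0.42) or without replicate 1 or 2 (0.11 each). MSTRG.15424 fell by 1.07 on the log2 scale (SE 0.30, adjusted p = 0.023 by edgeR), the opposite of its direction in the container groups of the choice. Without TMM factors 59 genes were higher and 6 lower, and all genes split into 6247 higher and 3792 lower in place of 4910 and 5164.

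The ages of 7 and 8 weeks after spring sowing were compared, although the choice required similar means at these harvests in long container roots and so favoured genes with little difference. In 4 pairs of groups matched for root type, length, vitality and container, 0 of 96 genes were higher and 4 were lower by edgeR, against 0.936% and 4.06% of all genes, and 12 had an unadjusted p under 0.05. The share of genes that were lower thus lay near the background. DESeq2 called 1 gene higher and 4 lower, against 688 higher and 1456 lower of all 25421 genes. The median log2 fold change was -0.08 for the genes and 0.00 for all genes. The pairs did not move alike, as the median log2 difference of group means was -0.08 in short taproots, 0.27 in medium taproots and 0.36 in medium lateral roots but -0.81 in dying taproots. That last pair includes the 2 libraries that matched rhizotron taproots. Without that pair 1 gene was higher and 3 were lower, against 387 higher and 1103 lower of all 24346 genes. With libraries merged 0 were higher and 1 was lower, against 1.82% and 3.24% of all genes, and without replicate 1, 2 or 3 the calls numbered 6, 0 and 2. Over all genes, omitting replicate 1, 2 or 3 gave 276 higher and 1020 lower, 10 and 182, and 34 and 306. Without TMM factors 3 genes were lower, and all genes split into 542 higher and 835 lower in place of 238 and 1033.

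MSTRG.33546 was the gene that fell most with age. Its 12 libraries at 7 weeks ranged from 1.04 to 17.7 TPM (median 3.03) and its 12 libraries at 8 weeks from 0.18 to 6.83 TPM (median 0.99). The ranges overlapped across root types, but the mean was lower at 8 weeks in 4 of 4 pairs. The log2 fold change was -1.88 (SE 0.33, adjusted p = 0.0012 by edgeR), and the gene did not pass with libraries merged (0.06) or without replicate 2 (0.08).

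Thick roots were compared with normal roots in 4 matched pairs of Dataset 1, which share the normal summer rhizotron taproots and the normal and thick spring container roots of medium length with the comparisons above. Of 97 genes, 52 were higher and 2 lower in thick roots by edgeR, against 11.4% and 14.9% of all genes. On the log2 scale the median change was 0.99 for the genes and -0.01 for all genes. With libraries merged 43 were higher and 2 lower, against 5.03% and 7.41%. Without TMM factors 41 were higher and 2 lower, while all genes split into 1373 higher and 5050 lower in place of 2939 and 3817, with a median of -0.12. Omitting replicate 1, 2 or 3 left 47, 19 and 29 calls. Over all genes, 1970 were then higher and 2340 lower of 25848, 544 and 798 of 25870, and 991 and 1605 of 25790.

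The 4 pairs differed from each other. The median level of the 100 genes went from 1.99 TPM in normal to 8.89 TPM in thick container taproots of spring, where 85 genes were higher in every thick library than in every normal one and 0 were lower (26.9% and 27.2% of the 14142 genes). It went from 7.70 to 16.0 TPM in long summer taproots of the rhizotron and from 5.77 to 9.92 TPM in lateral roots of the container. In lateral roots of the rhizotron it went from 9.32 down to 4.86 TPM, in the group where 3 genes held 42.7% of the counts. The median log2 difference of the 100 genes was -0.69 there, as was that of the 14142 genes.

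MSTRG.6582 rose most in thick roots. Its 12 normal libraries ranged from 0.21 to 5.68 TPM (median 2.19) and its 12 thick libraries from 3.45 to 41.7 TPM (median 6.20), and its mean was higher in 4 of 4 pairs. The log2 fold change was 2.32 (SE 0.45, adjusted p = 0.00085 by edgeR; 0.00054 with libraries merged). MSTRG.32843 was lower in 4 of 4 pairs, with 0 to 7.17 TPM in normal libraries (median 2.55) and 0 to 6.02 TPM in thick ones (median 0). Its log2 fold change of -2.45 (SE 0.80, adjusted p = 0.028 by edgeR) did not pass with DESeq2 (0.067), in a single fit (0.13), with libraries merged (0.26), or without replicate 1 or 2 (0.18 and 0.24).

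Dying roots were compared with active roots in 7 matched pairs of Dataset 2, covering taproot meristematic zones, elongation zones and lateral roots. The comparisons of Dataset 2 share groups with each other, so that their values are given side by side only. Of 98 genes tested by edgeR, 42 were higher and 12 lower in dying roots, against 18.5% and 23.6% of all genes, with medians of 0.32 and -0.02 on the log2 scale. With libraries merged, 20 were higher and 2 lower, against 5.12% and 7.47%. Leaving out the transplanted pair with conflicting labels left 40 higher and 12 lower, against 4809 higher and 5832 lower of all 26965 genes. Without TMM factors 43 were higher and 10 lower, and all genes split into 6500 higher and 5117 lower in place of 5033 and 6408. The largest differences between dying and active groups were in taproot meristematic zones, where the median of the 100 genes went from 9.92 to 19.6 TPM in long container roots and from 6.80 to 11.4 TPM in transplanted ones. In long lateral roots of the container the median of the 100 genes was 9.48 TPM in active and 9.24 TPM in dying roots.

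MSTRG.10785 rose in dying roots. Its 21 active libraries ranged from 0.16 to 17.1 TPM (median 4.53) and its 21 dying libraries from 13.6 to 80.2 TPM (median 23.2), and its mean was higher in 7 of 7 pairs. The log2 fold change was 2.19 (SE 0.26, adjusted p = 3e-08 by edgeR; 0.00021 with libraries merged). MSTRG.1510 fell, with 114 to 531 TPM in active libraries (median 226), 29.2 to 294 TPM in dying ones (median 99.9) and a lower mean in 7 of 7 pairs. Its log2 fold change was -1.49 (SE 0.15, adjusted p = 2.5e-09 by edgeR; 0.00038 with libraries merged). MSTRG.1510, which was among the 21 genes below their summer mean in all other spring groups, thus ran against most of the set in dying roots.

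**Figure D5:**
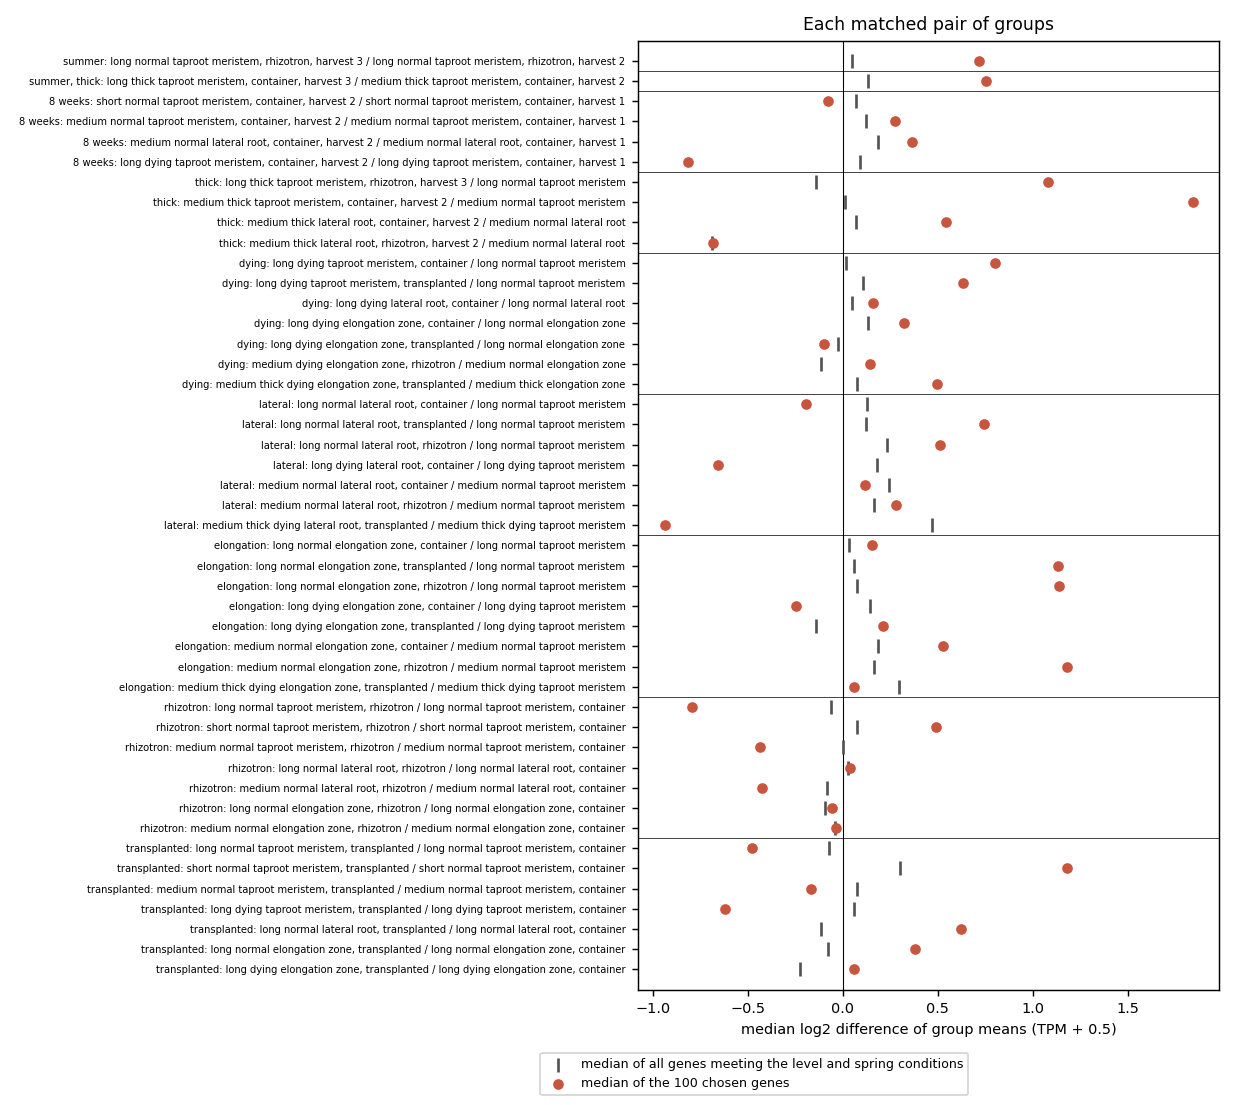
Median log2 difference of group means (TPM + 0.5) of the 100 genes (red points) and of the 14142 genes that met the level and spring conditions (grey bars) in each matched pair, named as the first group over the second. The red points lie farthest to the right for thick against normal container taproots of medium length (1.84), and those for lateral roots against taproots fall on both sides of 0.

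Whether dying changed the genes differently in the elongation zone and in the meristematic zone was tested as an interaction in long container taproots of Dataset 2, which share their libraries with the comparison above. Of 95 genes, 62 had a lower and 9 a higher log2 change with dying in the elongation zone by edgeR, against 23.4% and 23.3% of all genes (46.6% in either direction), and the median difference was -0.58 for the genes and 0.01 for all genes. The median level went from 13.3 to 15.6 TPM in the elongation zone and from 9.92 to 19.6 TPM in the meristematic zone. The 3 libraries of each of these 4 groups were near-identical and joined into 1 unit. The 71 calls therefore rest on the spread between near-identical libraries. In a single fit of all groups of the dataset with separate libraries, 0 genes were higher and 19 lower. Over all 28407 genes tested there, 2010 were higher and 1905 lower. With libraries merged, each group was 1 unit whose spread was taken from other groups, and the median difference of the genes was -0.57. DESeq2 on the separate libraries called 7 higher and 59 lower, against 5196 higher and 5395 lower of all 25032 genes. Without TMM factors 11 genes were higher and 58 lower, and all genes split into 7346 higher and 4642 lower in place of 5824 and 5853.

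The genes were divided between root types when lateral roots were set against taproot meristematic zones in 7 matched pairs of Dataset 2, as 31 of 97 were higher and 44 lower in lateral roots by edgeR, against 31.7% and 35.4% of all genes. These shares of 32.0% and 45.4% lay near the background for genes higher in lateral roots and above it for genes lower there. The median log2 fold change was -0.18 for the genes and -0.03 for all genes, but it was 0.06 with limma on log2(TPM + 1), against 0.18 for all genes. With libraries merged 32 were higher and 41 lower, against 25.7% and 26.8%. Without TMM factors 36 were higher and 41 lower, and all genes split into 10973 higher and 7288 lower in place of 8697 and 9690, with a median of 0.12.

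Single genes differed strongly between these root types. MSTRG.9500 held 0.02 to 6.63 TPM in 21 taproot libraries (median 1.07) and 63.4 to 234 TPM in 21 lateral root libraries (median 106), without overlap, with a log2 fold change of 5.86 (SE 0.31, adjusted p = 1.4e-18 by edgeR). MSTRG.28185 held 439 to 6110 TPM in taproots (median 794) and 19.4 to 128 TPM in lateral roots (median 65.5), again without overlap, with a log2 fold change of -4.45 (SE 0.27, adjusted p = 7.2e-17 by edgeR). Both genes kept their direction in 7 of 7 pairs. MSTRG.27246 and MSTRG.19452 were also lower in lateral roots, with log2 fold changes of -3.33 and -3.57. The pairs of MSTRG.15424 moved in both directions. Its mean was 4054 TPM in taproots and 1670 TPM in lateral roots of long normal container seedlings. In long normal transplanted seedlings it was 1549 TPM in taproots and 2306 TPM in lateral roots.

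Elongation zones were compared with meristematic zones of like-classed taproots over 8 matched pairs in Dataset 2. Of 99 genes, 54 were higher and 14 lower in elongation zones by edgeR, against 32.5% and 32.8% of all genes, with median log2 fold changes of 0.38 and 0.02. With libraries merged 35 were higher and 5 lower, against 21.3% and 21.8%. Without TMM factors 56 were higher and 12 lower, and with limma 61 and 10, while all genes split into 10386 higher and 7242 lower and into 11815 and 6163, in place of 8809 and 8905. The median log2 fold change of all genes was then 0.11 and 0.12, and that of the genes 0.47 and 0.51. The median went from 5.22 to 13.9 TPM in long and from 5.80 to 15.2 TPM in medium normal taproots of the rhizotron, and from 6.80 to 17.6 TPM in long normal transplanted ones. In long dying container taproots it went from 19.6 to 15.6 TPM.

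MSTRG.32487 was higher in the elongation zone in 8 of 8 pairs. It held 0.04 to 1.75 TPM in 24 libraries of meristematic zones (median 0.49) and 0.30 to 11.2 TPM in 24 of elongation zones (median 4.54), with a log2 fold change of 3.09 (SE 0.18, adjusted p = 5.5e-18 by edgeR). MSTRG.1510 was lower in 8 of 8 pairs, with 103 to 531 TPM (median 290) in meristematic zones and 29.9 to 384 TPM (median 131) in elongation zones. Its log2 fold change was -1.02 (SE 0.16, adjusted p = 3.2e-07 by edgeR). The libraries of both genes overlapped between zones.

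Rhizotron and container roots were compared in 7 matched pairs of Dataset 2. Of 99 genes, 3 were higher and 20 lower in the rhizotron by edgeR, against 6.49% and 8.92% of all genes, with medians of -0.13 and -0.02 on the log2 scale. With libraries merged 1 gene was lower, against 0.147% of all genes higher and 0.48% lower, and 19 genes had an unadjusted p under 0.05. Without replicate 1, 2 or 3 the calls numbered 19, 10 and 11. Over all genes, 1733 were then higher and 1845 lower of 26882, 261 and 502 of 26946, and 532 and 800 of 26948. The median of the 100 genes went from 9.92 TPM in the container to 5.22 TPM in the rhizotron for long taproots, but from 3.80 to 6.90 TPM for short ones. MSTRG.32843 was lower in 7 of 7 pairs, with 0 to 7.72 TPM in container libraries (median 0.59) and 0 to 1.37 TPM in rhizotron libraries (median 0). Its log2 fold change was -2.44 (SE 0.57, adjusted p = 0.0031 by edgeR), which did not pass with libraries merged (0.25) or without replicate 2 (0.089).

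Transplanted and container roots were compared in 7 matched pairs of Dataset 2, in which the transplanted seedlings were also a year older. Of 98 genes, 25 were higher and 11 lower by edgeR, against 17.1% and 16.0% of all genes, with medians of 0.09 and 0.00. With libraries merged 14 were higher and 6 lower, against 5.63% and 6.81%, and without replicate 1, 2 or 3 the calls numbered 25, 20 and 31. Over all genes, omitting replicate 1, 2 or 3 gave 2368 higher and 2139 lower, 2074 and 2025, and 3213 and 3168. Leaving out the pair with conflicting labels gave 29 higher and 8 lower, against 4300 higher and 4551 lower of all 26792 genes. The median of the 100 genes went from 3.80 to 10.2 TPM in short taproots, whereas it went from 19.6 to 11.4 TPM in long dying taproots.

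MSTRG.19120 rose with transplanting, from 2.66 to 31.8 TPM in 21 container libraries (median 10.1) to 14.0 to 51.7 TPM in 21 transplanted ones (median 31.0). It was higher in 7 of 7 pairs, with a log2 fold change of 1.43 (SE 0.19, adjusted p = 4e-07 by edgeR; 0.0014 with libraries merged). MSTRG.20463 fell in 7 of 7 pairs, from 2.26 to 34.2 TPM (median 16.1) in container libraries to 2.48 to 30.6 TPM (median 4.77) in transplanted ones. Its log2 fold change was -1.42 (SE 0.21, adjusted p = 3.2e-06 by edgeR; 0.0067 with libraries merged).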

How the data were processed

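Gene-level values of 165 root libraries in 55 groups of 3 were used, grouped by the sample codes. The authors mapped reads to the *Q. robur* genome, assembled transcripts with StringTie and estimated expected counts with RSEM on Bowtie 2 alignments, without normalization. The deposited TPM values, from the same run, were normalized by the authors to gene length and library. Levels are TPM. For tests, expected counts were rounded, filtered with filterByExpr (minimum count of 10), scaled by TMM factors and fitted with edgeR 4.0.16 (quasi-likelihood test, matched pair as covariate, only the groups compared) in R 4.3.3, with Benjamini-Hochberg adjustment over all genes tested and a threshold of 0.05. Genes not tested had too few counts. Standard errors were derived from the F statistic. The model was tested on simulated data. The p-values measure the spread between libraries, many of which were near-identical. Alternatives were no TMM factors, no filter or a mean count of at least 50, DESeq2 1.42.0, a replicate block, limma 3.58.1 on log2(TPM + 1), a single fit of all groups of a dataset, near-identical libraries merged (CV under 0.05) and omission of each replicate. Omission of the spring libraries matching another group and of the dying pair was added after the data were seen. Expected counts cannot fully separate near-identical gene copies.

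The genes and the tests were chosen with earlier results of these data known. The text names the 6 genes with the highest score, the 2 on either side of the limit, the 4 most abundant in summer and, for each comparison except the interaction, the called genes with the highest and lowest fold change among those whose means moved alike in every pair, and the lowest tested in rhizotron taproots. Other named genes were chosen after their values were seen. Tables per transcript were not used here. Figures were drawn with matplotlib 3.10.9.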

Additional observations from a re-analysis of the deposited data

Results flagged for a closer look

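The difference between taproot zones in the change with dying was marked because the test of that difference itself passed for 71 of the 95 genes tested, in long container taproots of Dataset 2 (62 with a lower and 9 with a higher change in the elongation zone by edgeR, against 46.6% of all genes in either direction). The median log2 difference of the group means was 0.80 in the meristematic zone and 0.32 in the elongation zone. The 3 libraries of each of the 4 groups were near-identical, so that the 71 calls rest on the spread between such libraries. In a single fit of all groups with separate libraries, 0 genes were higher and 19 lower, against 2010 higher and 1905 lower of all 28407 genes tested. With near-identical libraries merged, each group was 1 unit whose spread was taken from other groups, and the median difference was -0.57.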

How the results depend on the processing

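Counts of called genes among the 100 moved with several alternatives. With near-identical libraries merged in a single fit, where a group of 1 unit was assumed to vary like the other groups, the calls were 0 for summer sowing in rhizotron taproots (from 35), 1 in thick taproots (from 61), 1 for age (from 4), 45 for thick against normal roots (from 54), 22 for dying (from 54), 73 for lateral roots (from 75), 40 for the elongation zone (from 68), 1 for the rhizotron (from 23), 20 for transplanting (from 36) and 0 for the interaction (from 71), where all 4 groups were 1 unit. A single fit with all libraries separate gave 21, 30, 13, 38, 60 and 19 for summer sowing in rhizotron taproots and thick taproots, age, rhizotron, transplanting and the interaction. Of all 27838 genes, that fit called 1408 higher and 962 lower, 2503 and 3059, and 2856 and 2279 in the first 3 of these. Of all 28407 genes, it called 3261 higher and 4959 lower, 6948 and 7429, and 2010 and 1905 in the last 3. For rhizotron taproots, the summer count was 5 without the 2 spring libraries that matched another group and 0 with spring library 1 alone and merging. A mean count of at least 50 gave 2 calls for age, against 206 higher and 733 lower of all 17352 genes tested. Omitting a replicate gave 4 to 61 calls for summer sowing in rhizotron taproots, 30 to 80 in thick taproots, 0 to 6 for age, 19 to 47 for thick roots, 40 to 48 for dying, 71 to 73 for lateral roots, 52 to 62 for the elongation zone, 10 to 19 for the rhizotron, 20 to 31 for transplanting and 62 to 66 for the interaction. In rhizotron taproots all genes moved too, from 127 higher and 17 lower without replicate 2 to 5281 and 4618 without replicate 1. Without replicate 1, 2 or 3, all genes split into 3905 higher and 4732 lower, 3191 and 4095, and 3114 and 4409 for dying. The splits were 7325 and 8440, 7706 and 8441, and 7592 and 8455 for lateral roots. They were 8149 and 8314, 7529 and 7674, and 7469 and 7712 for the elongation zone. For the interaction they were 5147 and 5416, 4635 and 4805, and 4618 and 4781. The choice itself kept 54 to 58 of the 100 genes without a replicate, 49 without the group of conflicting length, 81 with a pseudocount of 1 and 74 with CPM. The causes of these moves were not tested beyond the construction of each alternative. With a replicate block the calls were 33, 64, 4, 52, 54, 75, 68, 23, 35 and 71, in the order summer sowing in rhizotron and thick taproots, age, thick, dying, lateral, elongation zone, rhizotron, transplanting and interaction. Over all genes, the first 5 had 1738 higher and 1067 lower, 4405 and 4399, 221 and 978, 2734 and 3484, and 4983 and 6234. The last 5 had 8634 and 9610, 8748 and 8873, 1676 and 2261, 4437 and 4224, and 5735 and 5731. The labels tie no libraries to a plant by number. Deviations of same-numbered libraries correlated at -0.281 to 0.569, and over 0.1 in only 4 of 24 pairs for the elongation zone, 4 of 21 for lateral roots, 1 of 12 for age and 1 of 21 for the rhizotron, so that the numbers were not taken as pairing. The block ended the call of MSTRG.9500 in rhizotron taproots. Of the 16 calls of genes named for a comparison, none reversed its direction under the alternatives run, and with libraries merged 9 passed and 7 did not. Fold changes of the other named genes were not followed through the alternatives. Depth limits the 33 genes under 10 TPM most, and a listed 0, as for MSTRG.32094, does not show absence.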
